A study of Mus musculus with 2 samples.

Results

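The amino acid and glucose transporters described here are all genes of the count table that belong to the solute carrier families Slc1, Slc2, Slc3, Slc7, Slc38 and Slc43, chosen by symbol and not by their values. They number 43 of the 18786 genes. Of these, 42 are carriers or chains of carriers, and Slc7a6os lies beside Slc7a6 on the opposite strand, shares its stem and is no carrier. The samples were innate lymphoid cells (ILCs), which in principle carry no antigen receptor, taken from C57/BL6 mouse skin on postnatal days 1 and 14, and each day gave 1 library. Cells were gated as CD45+, Lin- and Thy1.2+ after collagenase digestion and captured with a 10x Genomics 5' kit, in which each RNA molecule carries a molecular tag (UMI) and is counted once. Cell names carry a suffix that divides the 5246 deposited cells into 2 sets, called set 2 and set 1 here. The suffix matches neither day, so the days were not compared, and every ratio below describes these 2 sets of cells with no replicate. Cells over 10% mitochondrial UMIs were left out, so 3508 cells of set 2 and 1441 of set 1 remained. A cell with at least 3 UMIs of Mki67, Top2a and Birc5 together was called cycling, which 5.05% of set 2 (4.34% to 5.82%, exact binomial 95% interval) and 31.3% of set 1 (28.9% to 33.8%) were. Just inside that limit, 27 and 40 cells of set 2 and set 1 had exactly 3 such UMIs, and just outside it 86 and 75 had 2. The cell groups were thus 177 cycling cells of set 2, 451 cycling cells of set 1, 3331 non-cycling cells of set 2 and 990 non-cycling cells of set 1. The call used UMIs as counted, so the cycling shares depend on depth, which differed between the sets. With cells thinned to 4000 UMIs and called again, 126 cells of set 2 were cycling and 2301 were not. For set 1 the numbers were 305 and 1076.

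Lymphocytes take up amino acids and glucose through membrane carriers of several families. System A carriers of the Slc38 family bring small neutral amino acids such as glutamine and alanine into the cell with sodium. Light chains of the Slc7 family such as Slc7a5, Slc7a6 and Slc7a8 exchange large neutral or cationic amino acids. They reach the surface only when bound to the heavy chain Slc3a2, also known as CD98. Glucose enters through facilitators of the Slc2 family, of which Slc2a1 (GLUT1) is the best known in activated lymphocytes. Leucine and arginine entering in this way are sensed by mTORC1 at the lysosome, and Slc7a8 has been studied as a carrier that group 2 ILCs (ILC2) use.

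The sets differed in depth. Median UMIs per cell were 9019 in cycling cells of set 2, 15545 in cycling cells of set 1, 4747 in non-cycling cells of set 2 and 9283.5 in non-cycling cells of set 1. Levels are therefore given as CPM, the UMIs of a gene per 1000000 UMIs of its cell group, with an exact Poisson 95% interval that covers counting error only. All 13 listed ILC2 markers had UMIs in every group, and their summed level lay between 5596 and 6845 CPM. Single markers differed between the sets. In non-cycling cells of set 2 and set 1, Calca stood at 163 and 715 CPM and Il17rb at 66.4 and 15.8 CPM. The 12 markers of group 3 ILCs summed to 323 to 561 CPM. Of these, Il22 stood at 3.80 and 200 CPM and Ccr6 at 130 and 25.4 CPM in the same non-cycling cells. Of 5 mast cell genes, Cma1 had 0 UMIs in non-cycling cells of set 2 and 544 in those of set 1. T cell receptor and Cd3 genes were also present, with 1168 to 1424 CPM for 6 genes, and T cells were not set apart from ILCs here. The 6 myeloid markers summed to at most 1.28 CPM. Genes of other skin cells differed between the sets: 4 keratinocyte genes summed to 12.9 and 14.3 CPM in cycling and non-cycling cells of set 2, against 90.6 and 122 CPM in those of set 1, and 4 fibroblast genes to 2.92 and 3.49 CPM in set 2, against 57.7 and 77.5 CPM in set 1, with Col1a2 and Dcn at 0 in cycling cells of set 2. Red cell genes summed to 15.2, 44.1, 231 and 190 CPM in cycling cells of set 2, cycling cells of set 1 and non-cycling cells of set 2 and set 1. Of the cell barcodes, 4 occurred in both sets.

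Of the 43 genes, 22 had at least 50 UMIs over the kept cells, 7 had 10 to 49, 12 had 1 to 9, and Slc2a5 and Slc7a10 had none. All 42 carriers together held 1382 CPM (1327 to 1439) in cycling cells of set 2, 1297 CPM (1271 to 1324) in cycling cells of set 1, 1556 CPM (1537 to 1575) in non-cycling cells of set 2 and 1378 CPM (1354 to 1402) in non-cycling cells of set 1. The total thus differed little between groups. Slc3a2, Slc38a1 and Slc38a2 alone took 74.1% of the carriers' UMIs in cycling cells of set 2, 71.1% in cycling cells of set 1, 77.0% in non-cycling cells of set 2 and 71.9% in non-cycling cells of set 1. These 3 genes were the only carriers above 100 CPM in any of the 4 groups. With cells thinned to 2000 UMIs, which left out 3, 1, 246 and 14 shallower cells of these groups, a cell had UMIs of 2 different carriers at the median in all 4 groups, and 8.49% to 10.9% of cells had none.

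**Figure D1:**
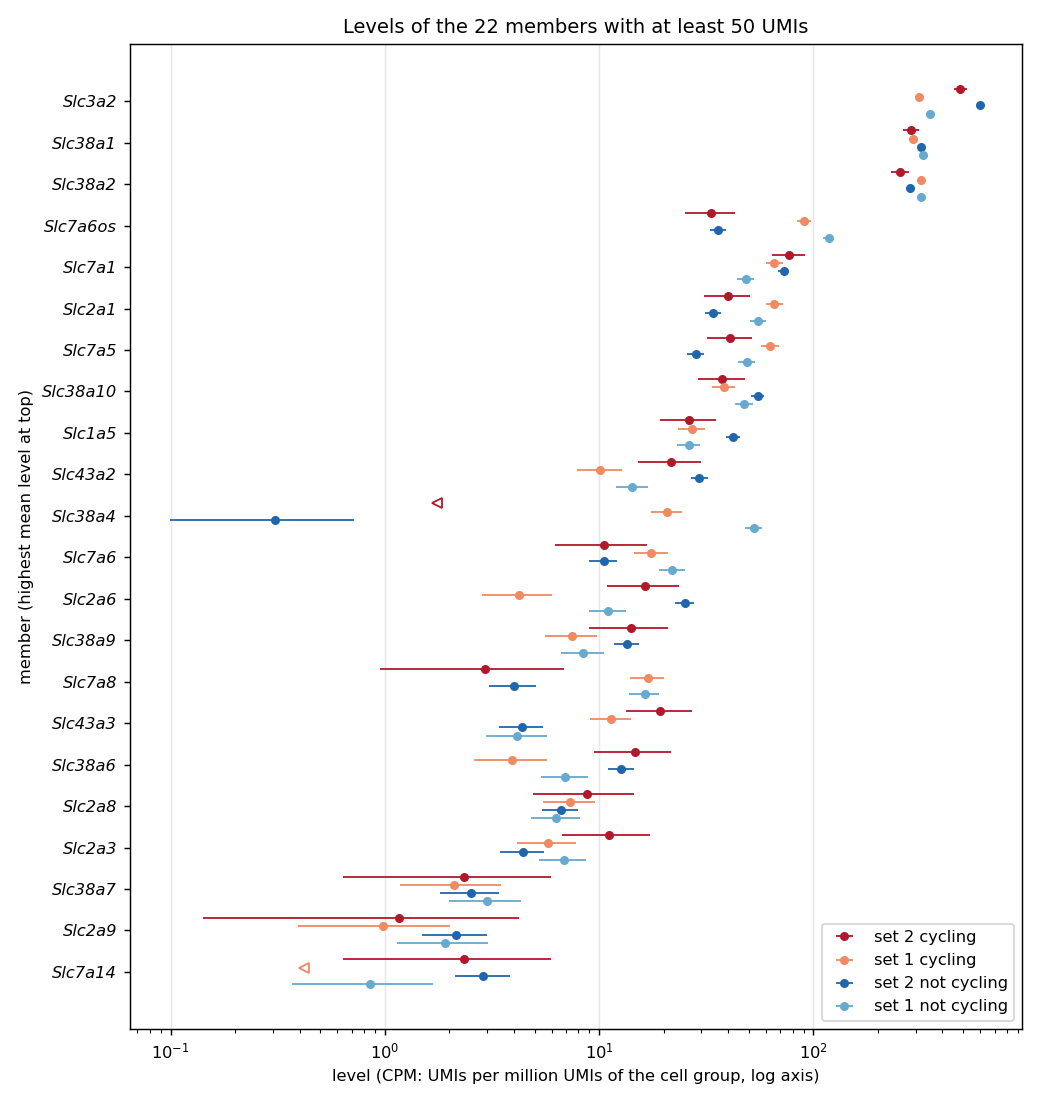
Level of each of the 22 genes with at least 50 UMIs (CPM, log axis), ordered by mean level, in cycling and non-cycling cells of set 2 and set 1; points are levels of summed UMIs, bars exact Poisson 95% intervals, and open triangles mark the level that a count of 0 allows (3 UMIs of the group). Slc3a2, Slc38a1 and Slc38a2 lie at 254 CPM or more in every group, and Slc38a4 is the gene with the widest spread between groups.

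Slc38a1 and Slc38a2 are both system A carriers. Slc38a1 differed little in level between the 4 groups, and Slc38a2 was moderately lower in set 2. Slc38a1 stood at 286 CPM in cycling cells of set 2 and 293 CPM in cycling cells of set 1, and at 319 and 325 CPM in non-cycling cells of set 2 and set 1. Its ratio of set 2 over set 1 was 0.981 (0.938 to 1.03) in non-cycling cells and 0.977 (0.883 to 1.08) in cycling cells, both intervals including 1. Slc38a2, which is known to be induced when amino acids run short, stood at 254 CPM in cycling cells of set 2 and 319 CPM in cycling cells of set 1, and at 281 and 317 CPM in non-cycling cells of set 2 and set 1. Its ratio was 0.795 (0.716 to 0.881) in cycling and 0.886 (0.846 to 0.928) in non-cycling cells.

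Slc38a4, the third system A carrier, known from liver and placenta and imprinted in the mouse, was detected mostly in set 1. It had 0 UMIs in cycling cells of set 2 (which allows up to 3 UMIs, or 1.75 CPM), 147 in cycling cells of set 1, 5 in non-cycling cells of set 2 and 493 in non-cycling cells of set 1, where 1 cell held at most 20 of the 147 and 17 of the 493. In level, non-cycling cells of set 2 reached 0.306 CPM (0.0995 to 0.715), against 52.5 CPM (48.0 to 57.4) in those of set 1, and cycling cells of set 1 had 20.6 CPM (17.4 to 24.2). In cycling cells set 2 was at least 11.8-fold lower by that limit of 3 UMIs over the group. That bound takes the set 1 level as counted and leaves out its counting error. In non-cycling cells the ratio of set 2 over set 1 was 0.00584 (0.00189 to 0.0137). With cells thinned to 2000 UMIs, 0 of 174 cycling cells of set 2 (which allows up to 1.72%) and 4.44% of cycling cells of set 1 had a UMI, as did 0.0324% and 6.97% of non-cycling cells of set 2 and set 1. Unthinned, those shares were 0%, 16.0%, 0.0901% and 18.4% in the same order.

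The 3 system A genes lie in a row on chromosome 15 of the mm10 (GRCm38) build. Slc38a1 spans 96571418 to 96643438, Slc38a2 spans 96687392 to 96699728 and Slc38a4 spans 96994816 to 97055956, with 43953 and 295087 bases between them. Slc38a1, which differed little between the sets, and Slc38a2, moderately lower in set 2, thus lie on the same stretch as the gene that differed most. The 250 bases before the annotated start are shown for Slc38a2 and Slc38a4 because of this contrast, and for Slc3a2 and Slc7a8 as the heavy chain and the light chain that differed between the sets in opposite directions. They are RefSeq sequences of GRCm38.p6, all on the minus strand, with the letters GGGCGG (a GC box) or, for the other strand, CCGCCC in capitals.
Slc38a2, chr15:96699729-96699978: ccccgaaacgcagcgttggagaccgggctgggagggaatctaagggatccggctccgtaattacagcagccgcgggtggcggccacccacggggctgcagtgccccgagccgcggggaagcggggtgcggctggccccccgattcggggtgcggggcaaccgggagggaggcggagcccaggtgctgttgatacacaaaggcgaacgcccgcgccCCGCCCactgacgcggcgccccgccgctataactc
Slc38a4, chr15:97055957-97056206: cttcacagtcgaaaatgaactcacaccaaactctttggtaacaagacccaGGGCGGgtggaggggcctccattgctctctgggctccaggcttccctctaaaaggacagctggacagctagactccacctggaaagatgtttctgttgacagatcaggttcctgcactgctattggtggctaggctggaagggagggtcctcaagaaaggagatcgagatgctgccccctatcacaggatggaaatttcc
Slc3a2, chr19:8713898-8714147: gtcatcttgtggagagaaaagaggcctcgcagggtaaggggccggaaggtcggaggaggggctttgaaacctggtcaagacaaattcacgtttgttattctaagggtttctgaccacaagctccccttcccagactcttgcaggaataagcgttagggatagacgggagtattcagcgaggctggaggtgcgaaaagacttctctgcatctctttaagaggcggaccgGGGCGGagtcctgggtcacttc
Slc7a8, chr14:54781887-54782136: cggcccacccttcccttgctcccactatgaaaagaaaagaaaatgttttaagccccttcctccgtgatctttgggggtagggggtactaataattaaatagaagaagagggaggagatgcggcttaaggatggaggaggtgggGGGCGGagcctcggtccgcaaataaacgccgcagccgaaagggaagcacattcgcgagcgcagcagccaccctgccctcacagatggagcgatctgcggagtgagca
The Slc38a2 window held 30 CpG pairs at 72.0% G and C, and the Slc38a4 window 3 CpG pairs at 52.8%. The Slc3a2 window held 11 at 53.6% and the Slc7a8 window 14 at 55.6%, where the median of 32851 promoters is 6 CpG pairs at 52.4%. For Slc3a2 the start lies inside the gene's span. Entries were found for 33 of the 43 genes. Slc38a1, Slc7a5, Slc1a5, Slc2a3 and Slc43a3, each with at least 50 UMIs, had none. A GC box was present in 12 of the 17 with at least 50 UMIs, in 22 of all 33 and in 32.7% of all promoters. The E-box CACGTG was in 2 of the 17 (Slc38a7 and Slc7a14), in 5 of the 33 and in 6.02% of promoters. The element TGATGNAA, bound by C/EBP and ATF proteins, was in 0 of the 17, in 2 of the 33 and in 3.45% (each searched on both strands).

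Slc3a2, the heavy chain (chromosome 19, 8706882 to 8723369), was the highest carrier in 3 of the 4 groups and was higher in set 2. It stood at 485 CPM (452 to 519) in cycling cells of set 2 and 310 CPM (297 to 323) in cycling cells of set 1. In non-cycling cells it stood at 599 CPM (587 to 611) in set 2 cells and 348 CPM (336 to 360) in set 1 cells. The ratio of set 2 over set 1 was 1.56 (1.44 to 1.69) in cycling cells and 1.72 (1.65 to 1.79) in non-cycling cells. At 2000 UMIs per cell, 58.0% and 63.6% of cycling and non-cycling cells of set 2 had a UMI of it, against 44.2% and 46.1% of those of set 1.

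The light chains that pair with Slc3a2 went the other way when summed. Their 6 genes summed to 60.2 CPM (49.2 to 73.1) in cycling cells of set 2 and 98.2 CPM (91.1 to 106) in cycling cells of set 1, and to 44.4 CPM (41.3 to 47.8) and 87.9 CPM (82.0 to 94.1) in non-cycling cells of set 2 and set 1. Set 2 over set 1 was 0.506 (0.457 to 0.559) in non-cycling cells. For each light chain UMI there were 8.05 (6.55 to 9.98) UMIs of Slc3a2 in cycling cells of set 2, against 3.16 (2.90 to 3.44) in cycling cells of set 1. In non-cycling cells the numbers were 13.5 (12.5 to 14.6) in set 2 and 3.96 (3.67 to 4.28) in set 1. These are ratios of RNA molecules as captured, not of proteins.

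**Figure D2:**
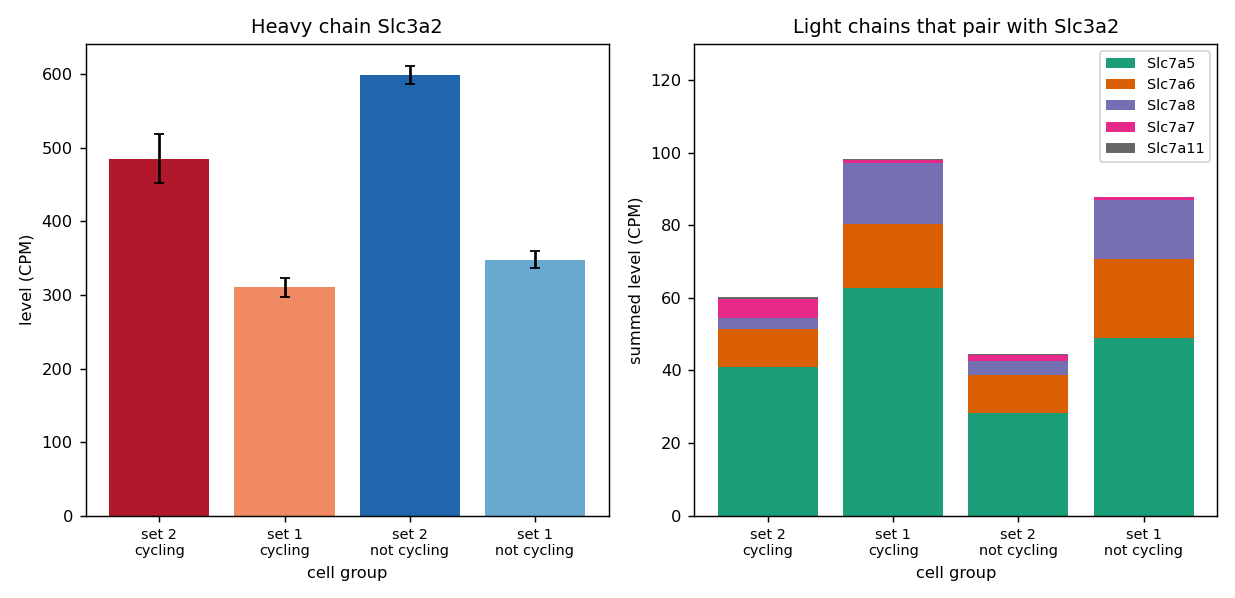
Level of the heavy chain Slc3a2 (left, CPM, bars with exact Poisson 95% intervals) and summed levels of its light chains (right, CPM, stacked by gene) in cycling and non-cycling cells of set 2 and set 1. Slc3a2 is higher in set 2, while the stack of light chains is taller in set 1, at 87.9 CPM in its non-cycling cells beside 44.4 CPM in those of set 2.

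Slc7a5 (LAT1), which imports leucine and other large neutral amino acids, was the main light chain, with 55.6% to 68.0% of light chain UMIs in the 4 groups. It stood at 40.9 CPM (31.9 to 51.7) in cycling cells of set 2 and 62.9 CPM (57.2 to 69.0) in cycling cells of set 1, and at 28.3 CPM (25.7 to 31.0) and 48.9 CPM (44.5 to 53.6) in non-cycling cells of set 2 and set 1. Slc7a8 (LAT2), with a like range of substrates, stood at 2.92 CPM (0.949 to 6.82) in cycling cells of set 2 and 16.8 CPM (14.0 to 20.1) in cycling cells of set 1, and at 3.98 CPM (3.07 to 5.08) and 16.3 CPM (13.8 to 19.1) in non-cycling cells of set 2 and set 1. Both light chains were thus lower in set 2, Slc7a8 by more: its ratio of set 2 over set 1 was 0.244 (0.180 to 0.329) in non-cycling cells, where that of Slc7a5 was 0.578 (0.507 to 0.659). Slc7a8 made up 4.85% and 8.97% of light chain UMIs in cycling and non-cycling cells of set 2, against 17.1% and 18.5% in those of set 1. Slc7a6, which exchanges cationic for neutral amino acids, stood at 10.5 CPM in cycling cells of set 2 and 17.5 CPM in cycling cells of set 1, and at 10.5 and 21.8 CPM in non-cycling cells of set 2 and set 1, with a ratio of 0.480 (0.389 to 0.591) in non-cycling cells. Slc7a7 had 48 UMIs in all and, unlike the sum of the light chains, was higher in set 2. It stood at 5.26 CPM (9 UMIs) in cycling cells of set 2 and 0.702 CPM (5 UMIs) in those of set 1. In non-cycling cells its level was 1.65 CPM (27 UMIs) in set 2 and 0.746 CPM (7 UMIs) in set 1. Slc7a11, the cystine carrier, had fewer than 10 UMIs.

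The comparison of set 2 with set 1 asked which transporters differ between the cell sets. A gene was counted as past 2-fold when the log2 ratio of CPM + 1 was at least 1 or at most -1 with 50 or more UMIs in the pair of groups, and no p-value can be given because the sets hold no replicates. In non-cycling cells, 22 genes of the families were measured, and 2 were higher in set 2 (Slc2a6 and Slc7a14) and 3 lower (Slc7a6os, Slc7a8 and Slc38a4). Over all 10034 genes measured, 11.2% were past 2-fold, 5.68% higher and 5.5% lower. The median log2 ratio was 0.06 for the 22 genes and -0.10 for all genes. In cycling cells 19 were measured, and Slc2a6, Slc38a6 and Slc43a2 were higher and Slc7a6os, Slc7a8 and Slc38a4 lower, where 9.06% of all genes were past 2-fold, 4.78% higher and 4.28% lower. The medians there were -0.03 for the 19 genes and -0.06 for all genes. The keratinocyte and fibroblast sums given above were likewise lower in set 2.

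Slc7a6os differed most of the abundant genes. It stood at 33.3 CPM (25.2 to 43.2) in cycling cells of set 2 and 90.2 CPM (83.4 to 97.5) in cycling cells of set 1, and at 35.9 CPM (33.0 to 38.9) and 118 CPM (111 to 125) in non-cycling cells of set 2 and set 1. It lies 1723 bases from Slc7a6 on chromosome 8 (106200438 to 106210933) and does not overlap it. The log2 ratio of set 2 over set 1 was -1.41 in cycling cells and -1.69 in non-cycling cells. With cells thinned to 4000 UMIs, the value in cycling cells was -0.27. That setting left out shallower cells and called cycling again, which left 126 cycling cells of set 2 and 305 of set 1.

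**Figure D3:**
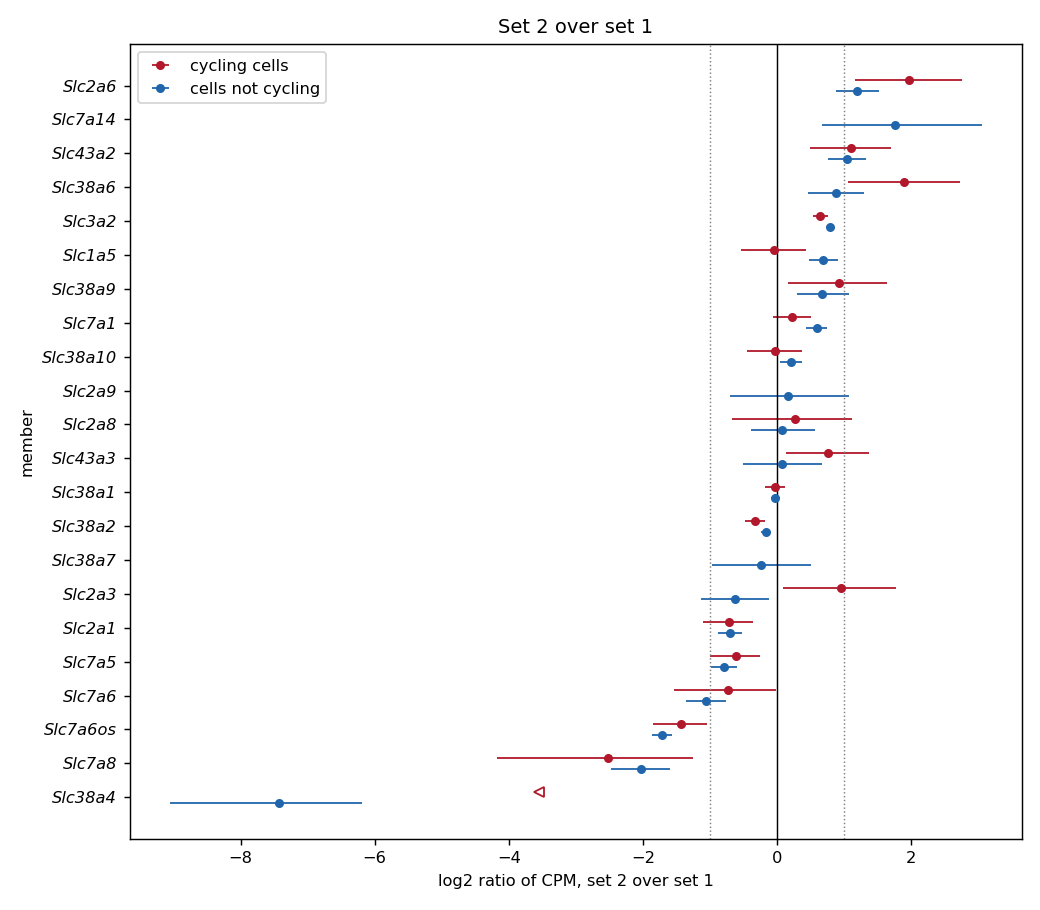
Log2 ratio of CPM, set 2 over set 1, for each gene of the families with at least 50 UMIs in the groups compared, in cycling and non-cycling cells; bars are 95% intervals of counting error, dotted lines mark 2-fold, and the open triangle is the limit that 3 UMIs set for Slc38a4 in cycling cells. No pseudocount is added here, so Slc43a2 and Slc7a6 in non-cycling cells lie just outside the dotted lines although they were not counted as past 2-fold; Slc2a6 is the highest gene in cycling cells and Slc38a4 the lowest.

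Among glucose carriers, Slc2a1 was lower and Slc2a6 higher in set 2 when cycling or non-cycling cells were taken as whole groups. Slc2a1 (chromosome 4, 119108745 to 119137330) stood at 39.8 CPM (30.9 to 50.4) in cycling cells of set 2 and 65.7 CPM (59.9 to 71.9) in cycling cells of set 1, and at 33.9 CPM (31.1 to 36.8) and 55.2 CPM (50.5 to 60.1) in non-cycling cells of set 2 and set 1. Its ratio was 0.606 (0.462 to 0.782) in cycling and 0.614 (0.544 to 0.694) in non-cycling cells. Slc2a6 (GLUT6), known from lysosomes of macrophages, stood at 16.4 CPM (10.9 to 23.7) in cycling cells of set 2 and 4.21 CPM (2.84 to 6.01) in cycling cells of set 1, and at 25.1 CPM (22.7 to 27.6) and 11.0 CPM (8.96 to 13.3) in non-cycling cells of set 2 and set 1. Set 2 over set 1 was 3.89 (2.24 to 6.74) in cycling and 2.28 (1.84 to 2.86) in non-cycling cells. Slc2a3 (GLUT3), a facilitator with high affinity, had 11.1, 5.75, 4.41 and 6.82 CPM in cycling cells of set 2, cycling cells of set 1, non-cycling cells of set 2 and non-cycling cells of set 1. Slc2a8, an intracellular carrier, had 8.77, 7.30, 6.62 and 6.28 CPM in the same groups, and Slc2a9, a urate carrier, 1.17, 0.982, 2.15 and 1.92 CPM. Slc2a2 and Slc2a4, the carriers of liver and of muscle and fat, had fewer than 10 UMIs each.

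Of the other amino acid carriers, Slc7a1, Slc1a5 and Slc43a2 were higher in non-cycling cells of set 2. Slc7a1 (CAT-1), the arginine and lysine carrier, stood at 76.6 CPM (64.1 to 90.9) in cycling cells of set 2 and 65.7 CPM (59.9 to 71.9) in cycling cells of set 1, and at 72.7 CPM (68.6 to 76.9) and 48.4 CPM (44.0 to 53.0) in non-cycling cells of set 2 and set 1. The ratio was 1.50 (1.35 to 1.68) in non-cycling cells and 1.17 (0.954 to 1.42) in cycling cells. Slc1a5 (ASCT2), which exchanges glutamine and other small neutral amino acids, stood at 26.3 CPM (19.2 to 35.2) in cycling cells of set 2 and 27.1 CPM (23.4 to 31.2) in cycling cells of set 1, and at 42.2 CPM (39.1 to 45.4) and 26.2 CPM (23.0 to 29.7) in non-cycling cells of set 2 and set 1. The non-cycling cells of set 2 were thus the group apart, with a ratio of 1.61 (1.39 to 1.87). Slc43a2 (LAT4), a facilitator of large neutral amino acids, stood at 21.6 CPM in cycling cells of set 2 and 10.1 CPM in cycling cells of set 1, and at 29.4 and 14.3 CPM in non-cycling cells of set 2 and set 1. Its ratio was 2.14 (1.40 to 3.23) in cycling and 2.06 (1.69 to 2.51) in non-cycling cells, on either side of the threshold at log2 ratios of 1.03 and 0.99.

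The Slc38 members of the lysosome or of unsettled site had 4 measured genes. Slc38a10 stood at 37.4, 38.2, 54.9 and 47.5 CPM in cycling cells of set 2, cycling cells of set 1, non-cycling cells of set 2 and non-cycling cells of set 1. Slc38a9, the arginine sensor of the lysosome that acts on mTORC1, stood at 14.0, 7.44, 13.4 and 8.42 CPM in these groups, and its set ratio was 1.60 (1.23 to 2.09) in non-cycling cells. Slc38a6 stood at 14.6 CPM (9.46 to 21.6) in cycling cells of set 2 and 3.93 CPM (2.61 to 5.68) in cycling cells of set 1, and at 12.7 CPM (11.0 to 14.5) and 6.92 CPM (5.34 to 8.82) in non-cycling cells of set 2 and set 1. Slc38a7, a lysosomal glutamine carrier, held 2.10 to 2.98 CPM in the 4 groups. Slc7a14, a less studied Slc7 member, had 4 UMIs in cycling cells of set 2 and 0 in cycling cells of set 1, and 47 and 8 in non-cycling cells of set 2 and set 1, a level of 2.88 CPM (2.12 to 3.83) beside 0.852 CPM (0.368 to 1.68). Below the minimum of 50 UMIs, Slc1a6, an acidic amino acid carrier, had 21 UMIs in non-cycling cells of set 2 and 0 in those of set 1. The other 6 genes with 10 to 49 UMIs were Slc7a7, Slc7a2 (39 UMIs, a cationic amino acid carrier), Slc2a12 and Slc38a5 (27 each), Slc1a4 (25, a relative of Slc1a5) and Slc1a1 (12, a glutamate carrier).

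The comparison of cycling with non-cycling cells asked which transporters accompany division. In set 2, 19 genes of the families were measured, and Slc2a3 and Slc43a3 were past 2-fold higher in cycling cells and none lower, where 9.31% of all genes were past 2-fold, 6.49% higher and 2.82% lower. In set 1, Slc43a3 was higher and Slc2a6 and Slc38a4 were lower among 19 measured, where 6.1% of all genes were past 2-fold, 5.08% higher and 1.03% lower. The median log2 ratio of the genes was -0.10 in set 2 and -0.16 in set 1, beside 0.10 and 0.04 for all genes. The 42 carriers together were at 0.888 (0.851 to 0.927) and 0.942 (0.917 to 0.967) of the level of non-cycling cells in set 2 and set 1. Of the 19 genes, 9 in set 2 and 8 in set 1 had a log2 ratio above 0, as did 5509 of 9401 genes in set 2 and 5175 of 9435 in set 1.

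Slc43a3, a carrier of purine nucleobases (chromosome 2, 84936545 to 84958509), was past 2-fold higher in cycling cells of both sets. It stood at 19.3 CPM (13.3 to 27.1) in cycling and 4.35 CPM (3.40 to 5.49) in non-cycling cells of set 2, and at 11.4 CPM (9.03 to 14.1) in cycling and 4.15 CPM (2.95 to 5.68) in non-cycling cells of set 1. The ratio was 4.44 (2.84 to 6.79) in set 2 and 2.74 (1.85 to 4.12) in set 1. In set 2 its UMIs in cycling cells numbered 33, with at most 3 in 1 cell.

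Slc2a3 in set 2 stood at 11.1 CPM (6.69 to 17.4) in cycling cells and 4.41 CPM (3.45 to 5.56) in non-cycling cells, but 7 of its 19 UMIs in cycling cells came from 1 cell. It was no longer past 2-fold without the top cell of each gene, at a log2 ratio of 0.65, or without the deepest 2% of cells, at 0.91, and was past it in 6 of 17 alternatives. In set 1 it stood at 5.75 CPM in cycling and 6.82 CPM in non-cycling cells. The large neutral amino acid light chain Slc7a5 was moderately higher in cycling cells, with a ratio of 1.45 (1.11 to 1.87) in set 2 and 1.29 (1.13 to 1.47) in set 1. In set 1, its log2 ratio was -0.41 with cells thinned to 4000 UMIs, shallower cells left out and cycling called again. Slc2a1 had ratios of 1.17 (0.898 to 1.51) in set 2 and 1.19 (1.05 to 1.35) in set 1; TMM scaling turned the log2 ratio in set 2 to -0.02. Slc7a1 had ratios of 1.05 (0.873 to 1.26) in set 2 and 1.36 (1.19 to 1.55) in set 1. Slc3a2 was lower in cycling cells, at 0.810 (0.753 to 0.869) in set 2 and 0.891 (0.844 to 0.941) in set 1. Slc38a4 in set 1 was 0.393 (0.324 to 0.473) of its non-cycling level in cycling cells, and Slc2a6 was 0.653 (0.429 to 0.958) in set 2 and 0.384 (0.247 to 0.581) in set 1.

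**Figure D4:**
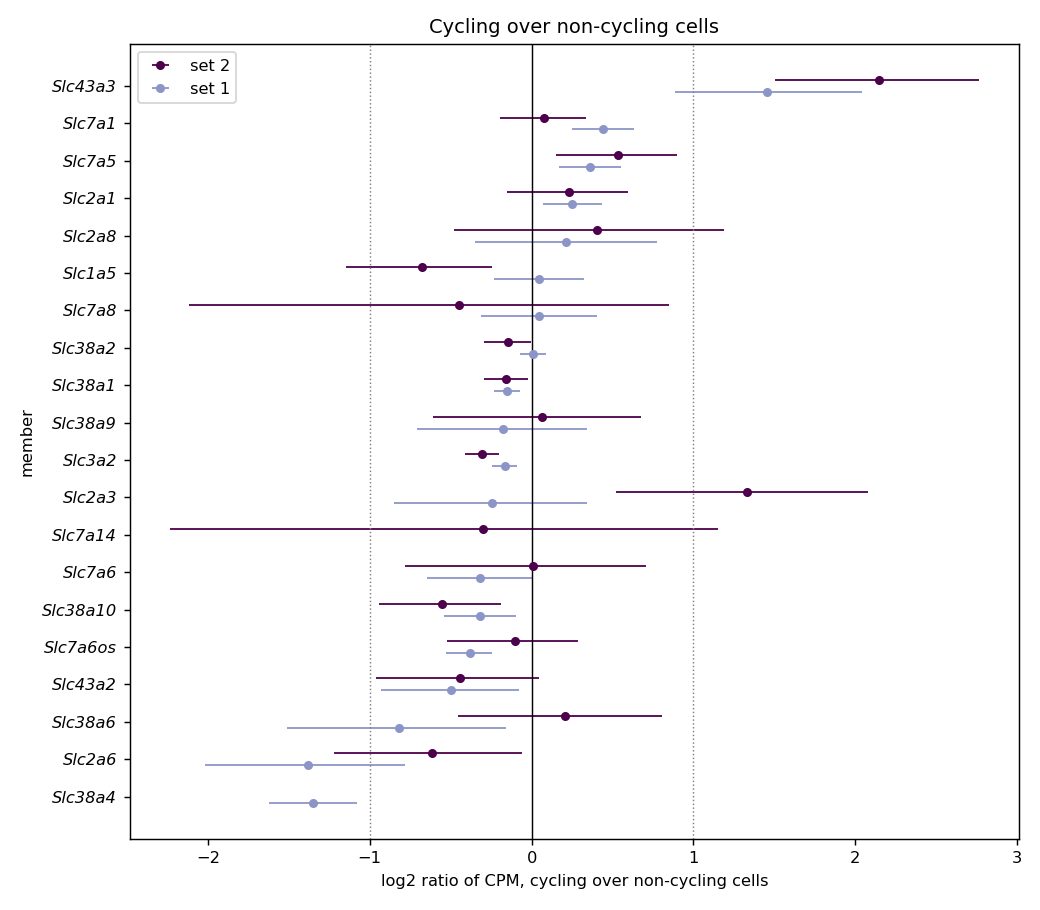
Log2 ratio of CPM, cycling over non-cycling cells, for each gene with at least 50 UMIs in the groups compared, in set 2 and set 1; bars are 95% intervals of counting error and dotted lines mark 2-fold. Slc43a3 lies to the right of the 2-fold line in both sets, Slc2a3 in set 2, and Slc2a6 and Slc38a4 lie left of the lower 2-fold line in set 1.

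The cells were also clustered on all variable genes, which gave 8 clusters, given here by number because their genes were used to draw them. The sets shared few of them. Cluster 0, with Slc38a4, Igsf5 and Calca leading, held 9 cells of set 2 and 687 of set 1. Cluster 2 (Cd70, Hopx and Ccr7) held 1996 and 4, and cluster 5 (Hspa1b, Il2 and Id3) held 948 and 2. Clusters 1 (Tspan32 and Tbc1d10c; 226 and 220 cells), 3 (histone genes and Mki67; 119 and 333) and 4 (Tyrobp, Il22 and Fcer1g; 40 and 195) held cells of both sets. Clusters 6 (Nabp1 and Neat1; median 1217 UMIs) and 7 (Il1rl1, Klrg1 and Il5) held 90 and 80 cells of set 2 and none of set 1.

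Within the 3 clusters that both sets shared, Slc38a4 had 0 UMIs in set 2 (which allows up to 3.88, 2.49 and 14.4 CPM), against 25.9, 18.3 and 4.28 CPM in clusters 1, 3 and 4 of set 1. In cluster 0 of set 1, which it helps to define, it reached 63.4 CPM (57.9 to 69.3). Krt14, a keratinocyte gene that ILCs should lack, lay between 40.2 and 67.9 CPM in these 4 clusters of set 1, and Col3a1, a fibroblast gene, between 22.8 and 54.4 CPM. Hbb-bs, a red cell gene that ILCs should also lack, reached 656 CPM in cluster 4 of set 1 and lay between 22.3 and 37.7 CPM in its clusters 0, 1 and 3. At 2000 UMIs per cell, 0% of cycling and 0.519% of non-cycling cells of set 2 had a Krt14 UMI, against 11.3% and 10.5% of those of set 1, and apart from Slc3a2, Slc38a1, Slc38a2 and Slc7a6os no gene of the families was found in a larger share of set 1 cells than Krt14. A share alone therefore does not show expression for those genes in set 1. The part that free RNA of other skin cells takes in the set ratios was not tested.

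In cluster 4, Slc7a8 had 0 UMIs in the 40 cells of set 2, which allows up to 14.4 CPM, and stood at 0.611 CPM (0.0155 to 3.41) in set 1. In set 2 it was highest in cluster 7, at 18.8 CPM (8.62 to 35.8), beside 2.11 CPM (1.34 to 3.16) in cluster 2, and in clusters 0, 1 and 3 of set 1 it lay between 16.8 and 23.5 CPM. Slc2a6 was highest in cluster 4, with 48.0 CPM (23.0 to 88.2) in cluster 4 of set 2 and 42.8 CPM (33.4 to 54.1) in cluster 4 of set 1. It also reached 34.5 CPM (31.1 to 38.2) in cluster 2 and was at 4.46 CPM (2.69 to 6.97) in cluster 5 of set 2 and 4.39 CPM (3.04 to 6.14) in cluster 0 of set 1. Cluster 2 held 377 of its UMIs in set 2, and in cluster 4 the intervals of the sets overlapped. In cluster 3 Slc2a6 stood at 13.3 CPM (7.59 to 21.6) in set 2 cells and 4.38 CPM (2.81 to 6.52) in set 1 cells. In cluster 1 it stood at 10.4 CPM (4.47 to 20.4, 8 UMIs) in set 2 cells and 3.09 CPM (1.00 to 7.20, 5 UMIs) in set 1 cells. The level in cluster 4 of set 2 rests on 10 UMIs, and its interval includes that of cluster 2.

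Slc3a2 differed between sets by cluster. It was at 211 CPM (180 to 246) in set 2 cells and 201 CPM (180 to 224) in set 1 cells in cluster 1, which had the lowest Slc3a2 in either set and the highest Cd3g, at 940 and 801 CPM. In cluster 3, of dividing cells, it was at 513 CPM (473 to 555) in set 2 cells and 299 CPM (284 to 314) in set 1 cells, and in cluster 4 at 456 CPM (369 to 557) and 411 CPM (380 to 443). Cluster 2 had 651 CPM (635 to 666) and cluster 5 had 512 CPM (491 to 534), both of set 2. Slc38a2 was at 477 CPM (456 to 498) in cluster 5, where heat shock and Fos genes led, and at 197 CPM (189 to 206) in cluster 2. In cluster 1 it stood at 239 CPM (206 to 277) in set 2 cells and 375 CPM (346 to 406) in set 1 cells. Cluster 3 had 255 CPM (227 to 285) and 327 CPM (312 to 343) of Slc38a2 in set 2 and set 1 cells. The 40 cells of cluster 4 of set 2 were high, at 523 CPM (429 to 631). Slc7a5 was low in cluster 1, at 6.47 CPM (2.10 to 15.1) in set 2 cells and 19.1 CPM (13.0 to 27.2) in set 1 cells, and reached 63.9 CPM (58.4 to 69.8) in cluster 0 and 61.7 CPM (55.3 to 68.7) in cluster 3 of set 1.

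Among clusters, cluster 7, with Il1rl1, Klrg1 and Il5 leading, had the highest Slc2a1, at 92.1 CPM (66.9 to 124), and the highest Slc2a3, at 31.4 CPM (17.6 to 51.8). Its Slc7a1 was at 134 CPM (103 to 171), against 85.0 CPM (79.6 to 90.6) in cluster 2. Within shared clusters, the lower Slc2a1 of set 2 was not seen throughout. In cluster 1 Slc2a1 stood at 19.4 CPM in set 2 cells and 19.8 CPM in set 1 cells. In cluster 4 it stood at 28.8 CPM (6 UMIs) and 58.1 CPM, with intervals that overlapped. In cluster 3 the intervals lay apart, at 25.1 to 47.1 CPM in set 2 cells and 60.3 to 74.2 CPM in set 1 cells. The low-depth cluster 6 had 1419 CPM of Slc38a1, 918 CPM of Slc3a2 and 224 CPM of Slc7a1, from 184, 119 and 29 UMIs. Slc7a6os stood at 107 CPM (79.5 to 140) in cluster 7, and at 100.2 CPM (53.4 to 171) in cluster 6, while the other clusters of set 2 held 19.2 to 41.3 CPM and those of set 1 held 84.4 to 125 CPM. Slc43a3 was highest in cluster 3 of both sets, at 24.9 CPM (16.8 to 35.5) in set 2 cells and 12.1 CPM (9.32 to 15.3) in set 1 cells.

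**Figure D5:**
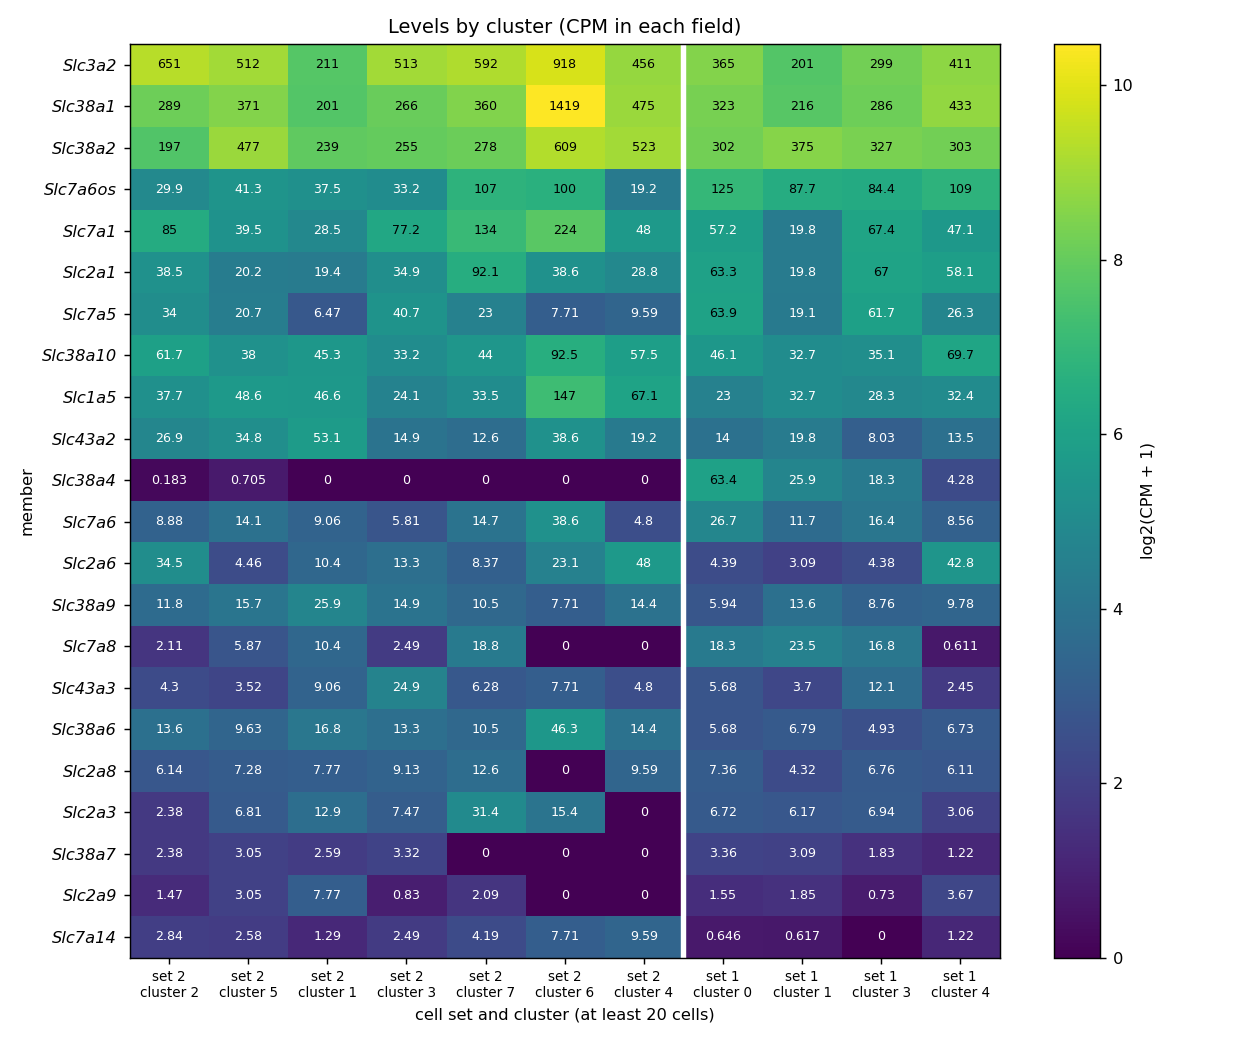
Level (CPM, printed in each field; colour shows log2 of CPM + 1) of the 22 genes with at least 50 UMIs in each cluster with at least 20 cells, set 2 left of the white line and set 1 right of it. Slc38a4 is at or near 0 in all clusters of set 2 and at 63.4 CPM in cluster 0 of set 1, and Slc2a6 is highest in cluster 4 of both sets.

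Genes upstream and downstream of uptake were counted in the same way. Of 20 genes of the ATF4 and amino acid response, 17 were measured in non-cycling cells, with Cebpb higher in set 2 and 7 lower (Asns, Trib3, Sesn2, Phgdh, Vldlr, Eif4ebp1 and Stc2), and 14 of 17 had a log2 ratio below 0, as did 5820 of 10034 genes, with a median of -0.88 beside -0.10 for all genes. Asns, asparagine synthetase, stood at 2.76 CPM in set 2 cells and 10.4 CPM in set 1 cells, a ratio of 0.264 (0.181 to 0.380). Stc2, a secreted glycoprotein, held 0.490 CPM in set 2 cells, against 4.90 CPM in set 1 cells. Trib3, an ATF4 target that restrains it, held 8 UMIs (0.490 CPM) in set 2 cells, against 45 UMIs (4.79 CPM) in set 1 cells, and Phgdh, the first enzyme of serine synthesis, was at 0.378 (0.340 to 0.421) of its set 1 level in set 2. Atf4 itself stood at 218 CPM in set 2 cells and 346 CPM in set 1 cells, a ratio of 0.629 (0.599 to 0.660). In cycling cells 15 were measured, with Cebpb higher, Asns, Trib3 and Sesn2 lower, and a median of -0.39.

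Aminoacyl-tRNA synthetases, which load amino acids onto tRNA, were mostly lower in set 2 and mostly higher in cycling cells. All 20 were measured, and 18 of 20 had a log2 ratio of set 2 over set 1 below 0 in non-cycling and in cycling cells, with medians of -0.60 and -0.38, where 5820 of 10034 and 4627 of 8313 genes were below 0, although only Aars and Gars (non-cycling) and Aars (cycling) were past 2-fold. In cycling over non-cycling cells 18 of 20 were above 0 in both sets, beside the shares of all genes given for that comparison, with medians of 0.60 in set 2 and 0.36 in set 1. Of 18 glycolysis genes, Tpi1 and the lactate carrier Slc16a3 were lower in non-cycling cells of set 2, Slc16a3 at 19.6 CPM in set 2 cells and 55.9 CPM in set 1 cells, and the list's median was -0.21. In cycling cells 0 of 16 measured were past 2-fold in either direction.

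Of 16 genes of glutamine, serine and polyamine metabolism, Odc1, the first enzyme of polyamine synthesis, was higher in set 2, at 3293 CPM in cycling cells of set 2 and 1060 CPM in cycling cells of set 1, and at 2868 and 1406 CPM in non-cycling cells of set 2 and set 1. Gpt2, Shmt1 and Tyms were lower in non-cycling cells of set 2, and Tyms, needed for DNA synthesis, was past 2-fold higher in cycling cells of both sets. Of 29 Myc and mTORC1 regulators, 26 were measured in non-cycling cells, with Mxd4 and Rragd higher in set 2 and Txnip and Arrdc4 lower, and a median of 0.07. Txnip, an arrestin that restrains glucose uptake and that glucose induces, stood at 76.6 CPM in cycling cells of set 2 and 234 CPM in cycling cells of set 1, and at 118 and 268 CPM in non-cycling cells of set 2 and set 1. Arrdc4, its relative, was at 0.223 (0.178 to 0.278) of its set 1 level in non-cycling cells of set 2.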

How the data were processed

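Single-cell RNA of skin ILCs was measured on postnatal days 1 and 14, each as 1 library. The deposited table holds whole-number UMI counts per gene and cell, not scaled. The submitters' processing notes name the mm10 build, Cell Ranger (3.1.0) and Seurat (4.1.0), and how each was set is not given in the sources used here. No column or file ties cells to a day, so the table was treated as 1 pooled sample with no test. The genes, the cell groups, the lists and the tests were chosen with earlier results of these data known.

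Counts were summed over the kept cells of each group (Python 3.11.15, scipy 1.17.1). A ratio's interval came from the exact binomial 95% interval of 1 group's UMIs among those of both, and shares carry exact Clopper-Pearson intervals. UMIs were not divided by gene length, since a 5' kit counts a molecule once whatever its length. A count of 0 was taken to allow 3 UMIs in the group. The groups held 1709926, 7126775, 16316222 and 9387857 UMIs (cycling cells of set 2 and set 1, non-cycling cells of set 2 and set 1). Genes with 50 or more UMIs were named, with values in all groups for the 12 highest and for those past 2-fold in a comparison. In other lists, up to 4 genes past 2-fold were given by the size of their ratio, and Atf4 was added after its values were seen. Some genes of these lists are not reported here. No doublet caller was run, and an alternative left out the deepest 2% of cells of each set. Clusters came from scanpy 1.11.5 (2000 variable genes, 30 components, 15 neighbours, Leiden resolution 0.5). TMM factors came from edgeR 4.0.16 and served only as another scaling. The ratio intervals were tried on counts simulated with counting error only. That setting leaves out UMIs clumped in single cells or clusters, so it does not show how the intervals behave there. Alternatives changed the mitochondrial limit, the cycling threshold, depth, weighting, scaling, pseudocount, UMI minimum and the cells included.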

Additional observations from a re-analysis of the deposited data

Results flagged for a closer look

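Slc2a3 was the gene whose ratio of set 2 over set 1 lay on opposite sides of 1 in the cell classes, with intervals that each left out 1. It was 1.93 (1.06 to 3.40) in cycling cells and 0.647 (0.456 to 0.921) in non-cycling cells. The difference between these ratios was not tested, and 7 of the 19 UMIs in cycling cells of set 2 came from 1 cell.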

How the results depend on the processing

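Ratios carry counting error only, and with no replicates, differences between mice or libraries cannot be told apart from those between the sets. Under 17 alternatives each, no ratio of a called gene changed its sign. Alternatives that changed only the UMI minimum or the pseudocount could not change a sign. With each alternative's UMI minimum, Slc38a4 and Slc7a6os were past 2-fold in all 17 in non-cycling cells, Slc7a8 and Slc2a6 in 16 and Slc7a14 in 8. In cycling cells Slc7a6os was in 16, Slc38a4 in 15, Slc7a8 in 14, Slc2a6 in 10, Slc43a2 in 8 and Slc38a6 in 7. Between cycling and non-cycling cells, Slc43a3 was in 15 in set 2 and 13 in set 1, Slc2a3 in 6 in set 2, and Slc38a4 in 15 and Slc2a6 in 11 in set 1. Between set 2 and set 1, 5 genes were past 2-fold in non-cycling cells and 2 with a pseudocount of 10 CPM; in cycling cells 6 were, and 3 with that pseudocount, 1 with at least 200 UMIs, 2 in cells with Xist and no Y-linked UMI and 0 with cells thinned to 4000 UMIs, where fewer genes were measured. For cycling over non-cycling cells of set 2, 2 were past 2-fold, and 1 with cycling called from 1 UMI, every cell weighing the same, TMM scaling, a pseudocount of 10 CPM, without the deepest 2% of cells, without the top cell of each gene or without cells with an Il1rl1 or Klrg1 UMI (chosen after seeing the data), and 0 with at least 200 UMIs or in cells with a Y-linked and no Xist UMI. In set 1, 3 were, and 1 with cycling from 1 UMI, thinning to 4000 UMIs, a pseudocount of 10 CPM or at least 200 UMIs, and 0 in cells with Xist and no Y-linked UMI. TMM scaling moved the median log2 ratio of all genes to 0.03 (set 2 over set 1, non-cycling cells; -0.10 without it) and to -0.14 (cycling over non-cycling, set 2; 0.10 without it). Of the counts and medians, 19 moved and 117 did not. For a count, a change within a fixed factor was not taken as a move. For a median, a value within the counting interval of the middle gene or genes was not. These limits are loose and do not measure the error of the median. Of the gene ratios and family levels together, 130 moved and 1525 did not, and 54 of the 130 were among the 312 family levels. A gene ratio or family level was counted as moved only if it left its counting interval of the main setting. Changing the UMI minimum alone leaves gene ratios as they are, so those alternatives could not move them. No paired analysis was possible because the labels give 1 sample of each day and the result comes from no test.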
